A study of Rattus norvegicus with 54 samples.

Results

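The genes described here are 36 heat shock and endoplasmic reticulum (ER) chaperone genes, of 46505 genes and loci in the deposited table. They are the rows whose gene name is one of a fixed set of names, and each of the 36 names was found and passed the filter on low counts in each of the 3 models fitted. The set holds 9 genes of the ER HSP70 and HSP90 system, 6 ER lectin chaperones and disulfide isomerases, 3 genes of ER-associated degradation, 4 transcription factors of the unfolded protein response, 8 cytosolic heat shock genes, 2 small heat shock proteins, the 2 subunits of the mitochondrial chaperonin and 2 cold-inducible RNA-binding proteins.

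They were measured by bulk RNA sequencing of the nucleus accumbens, a ventral striatal region that serves reward and motivation, in 54 libraries of male and female Long Evans rats. The prenatal condition was ethanol (PAE) or a free-choice liquid diet (FCL), and the adolescent one was water (VEH) or alcohol (AAE). Brains came from P42 (postnatal day 42), when 24 h had passed since the final exposure, or from P90 without further challenge. The P42 males were 9 with FCL-VEH and 9 with PAE-VEH, and the P42 females 7 and 4. The P90 males were 6 with FCL-VEH and 6 with PAE-AAE, and the P90 females 8 and 5, each number being libraries. The FCL-VEH groups are called controls. In the exposed adults the prenatal and adolescent exposures came together and their effects cannot be told apart, and in the age comparison age cannot be told apart from the time since the last adolescent exposure.

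Chaperones bind unfolded proteins and help them fold, refold or be degraded. In the ER lumen, misfolded protein draws BiP (Hspa5) away from stress sensors, and the unfolded protein response then raises ER chaperone transcription through XBP1, ATF6 and ATF4. In the cytosol, heat shock factor binds heat shock elements and raises HSP70, HSP90 and their co-chaperones, while the RNAs of Cirbp and Rbm3 are known to rise with mild cooling.

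Library totals over named genes ran from 58.8 M to 103.5 M counts, with a median of 72.2 M. Sex-linked transcripts went against the label in 3 libraries, namely male control replicate 8, male PAE-VEH replicate 5 and female control replicate 5, all at P42. They stayed in their labelled groups, and the counts and leading genes of the P42 and age comparisons are also given without them. By their correlation with the rest of their libraries, male PAE-VEH replicate 6 at P42, female control replicate 1 at P90 and male control replicate 6 at P90 stood apart. Spiny neuron markers were abundant in each library, and their summed level in the adult groups ran from 2604 to 9188 CPM (counts scaled to a common library total). Choroid plexus markers, which belong to a neighbouring tissue, ran from 22.5 to 3839 CPM over all 54 libraries. Sex-linked transcripts were mixed in male control replicate 6 at P90, with Xist, a female transcript, at 53.3 CPM beside Y-linked transcripts at 186 CPM. In male PAE-AAE replicate 5 they stood at 30.8 and 204 CPM. Xist was at most 9.01 CPM in the other libraries labelled male, apart from those against their label. Both mixed libraries were kept, and the source of their Xist was not tested. The labels do not say that each library is a separate animal and name no litter, so p-values measure the spread between these libraries only.

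Promoter letters are shown first, because they do not depend on any measured value and differ between ER and cytosolic members. Promoter windows of RefSeq genes on GRCr8, from 250 bases before to 50 after the start, were found for 30 of the 36 genes and not for Atf6, Cryab, Hsp90aa1, Manf, Pdia3 and Pdia6. The ER stress element, searched on both strands as CCAAT, 9 free bases and CCACG, was in 7 of the 30 windows (23.3%) and in 22 of 33469 windows of the whole table (0.0657%). These are its 8 occurrences, written in the direction of the motif with the fixed letters in capitals.

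Hspa5 (chr3:38452973-38452991): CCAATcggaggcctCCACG
Hsp90b1 (chr7:23012451-23012469): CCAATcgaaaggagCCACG
Hsp90b1 (chr7:23012347-23012365): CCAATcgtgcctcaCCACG
Dnajc3 (chr15:102432534-102432552): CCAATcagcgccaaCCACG
Creld2 (chr7:121789239-121789257): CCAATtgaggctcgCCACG
Calr (chr19:40213135-40213153): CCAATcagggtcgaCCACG
Canx (chr10:35158069-35158087): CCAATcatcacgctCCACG
Xbp1 (chr14:84604558-84604576): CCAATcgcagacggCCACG

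The shorter ER stress element II, ATTGG, 1 free base and CCACG on both strands, was in 3 of the 30 windows (10%) and in 17 of all windows (0.0508%). Hyou1 held it at 2 places.

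Dnajb11 (chr11:91672800-91672810): ATTGGcCCACG
Herpud1 (chr19:10614821-10614831): ATTGGgCCACG
Hyou1 (chr8:53602694-53602704): ATTGGcCCACG
Hyou1 (chr8:53602794-53602804): ATTGGgCCACG

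The heat shock element, GAA, 2 free bases, TTC, 2 free bases and GAA on both strands, was in 5 of the 30 windows (16.7%) and in 267 of all windows (0.798%). Its carriers were the cytosolic genes Hspa8, Hsph1 and Dnaja1 and both chaperonin genes. Hspd1 and Hspe1 lie head to head on chromosome 9, their windows overlap, and both hold the same pair of overlapping elements.

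Hspa8 (chr8:50080301-50080313): GAAagTTCcaGAA
Hspa8 (chr8:50080459-50080471): GAAccTTCcaGAA
Hsph1 (chr12:10427332-10427344): GAActTTCcaGAA
Dnaja1 (chr5:60638413-60638425): GAActTTCcaGAA
Hspd1 and Hspe1 (chr9:64084262-64084274): GAAggTTCtaGAA
Hspd1 and Hspe1 (chr9:64084267-64084279): GAAccTTCcgGAA

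No window held both an ER stress element and a heat shock element. The unfolded protein response core TGACGTGG was in Hyou1 and Bag3, against 199 of all windows (0.595%), and its Hyou1 copy overlaps the first ER stress element II there. The C/EBP-ATF composite TGATGCAA was in Herpud1, against 266 of all windows (0.795%). The CCAAT box alone, which the ER stress elements contain, was in 24 of 30 windows (80%) and in 37.5% of all windows. A match is a description of letters, and its absence says only that these letters are not in this window. Genes and elements were both picked for the ER stress and heat shock responses, so their shares beside all windows give no test. For comparison, the 250 bases before the start of an ER and of a cytosolic HSP70 gene follow, read along the gene, with the ER stress element of Hspa5 (chr3:38452766-38453015, plus strand) and the heat shock elements of Hspa8 (chr8:50080264-50080513, plus strand) in capitals. The second heat shock element of Hspa8 lies on the other strand, so its letters read reversed here.

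Hspa5: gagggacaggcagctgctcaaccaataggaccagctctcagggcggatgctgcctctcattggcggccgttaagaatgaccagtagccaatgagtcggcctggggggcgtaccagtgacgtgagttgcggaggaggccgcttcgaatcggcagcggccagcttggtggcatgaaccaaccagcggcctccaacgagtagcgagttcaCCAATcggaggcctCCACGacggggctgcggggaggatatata
Hspa8: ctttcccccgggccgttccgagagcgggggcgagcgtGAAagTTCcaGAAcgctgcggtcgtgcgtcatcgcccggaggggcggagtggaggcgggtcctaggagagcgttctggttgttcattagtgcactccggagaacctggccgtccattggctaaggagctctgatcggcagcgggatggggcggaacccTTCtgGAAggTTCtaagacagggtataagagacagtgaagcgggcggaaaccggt

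Levels between genes are compared in CPM per kilobase of the deposited gene length. Cytosolic chaperones were the most abundant members. Hspa8, the constitutive HSP70, stood at 656 ± 86.1 CPM per kb (SD, n = 54), Hsp90ab1, the constitutive HSP90, at 614 ± 55.4, and Hsp90aa1, its inducible partner, at 308 ± 42.7. The ER genes with the highest levels were Calr (200 ± 26.7), a calcium-binding lectin chaperone, Hsp90b1 (146 ± 16.5), the ER HSP90, and Hspa5 (134 ± 27.0). The ranges of Hsp90ab1 and Hspa8 overlap, as do those of Dnaja1, Hsp90b1, Hspa5, Hsph1 and Canx. At the low end, Hspb1, a small heat shock protein, stood at 6.39 ± 3.71, Bag3, a co-chaperone of selective autophagy, at 5.72 ± 1.41, and Edem1, a lectin that sends misfolded glycoproteins to degradation, at 3.93 ± 0.41. Herpud1 ranked 35 of 36, with a table length of 11305 bases, the longest of the set. The deposited FPKM values put the 36 genes in the same order.

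**Figure D1:**
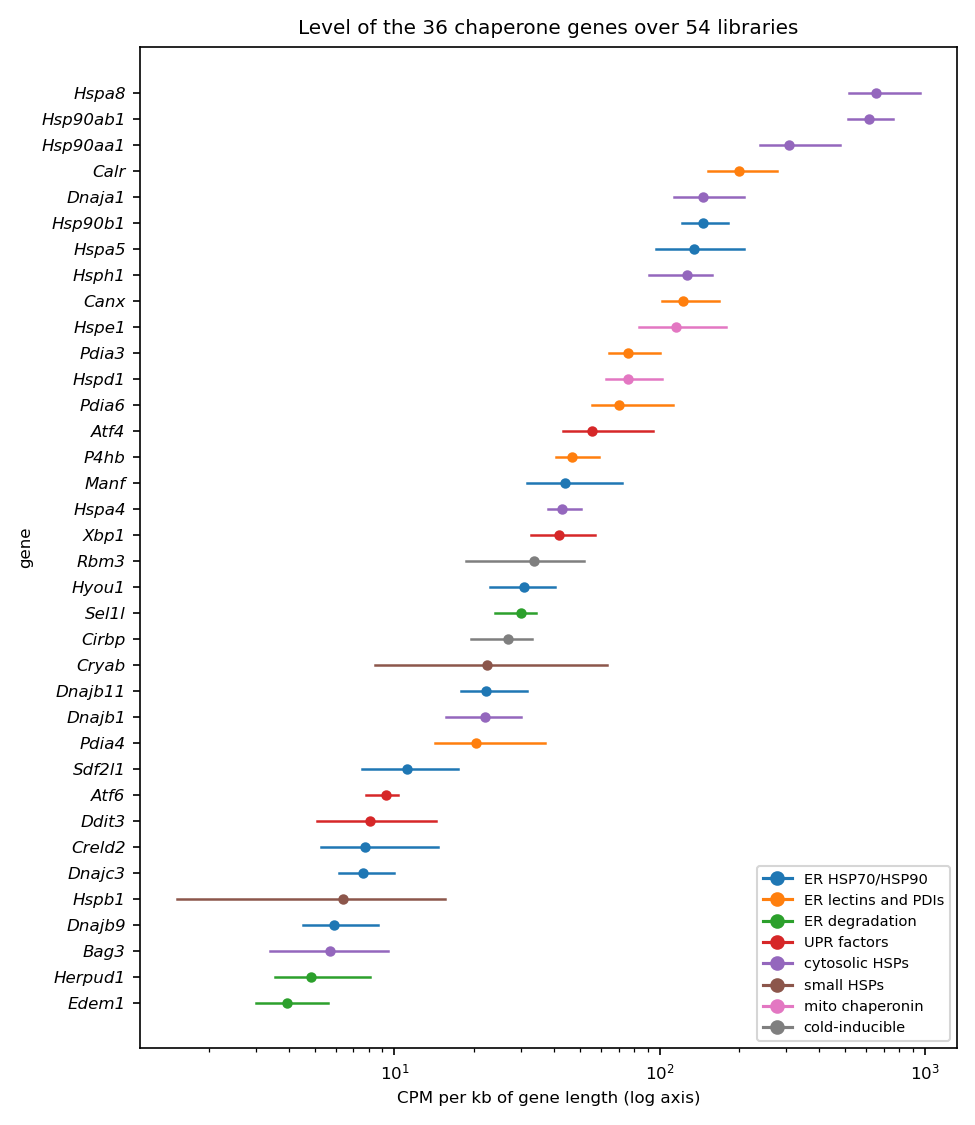
Level of each gene in CPM per kilobase of gene length on a log axis, with the mean over 54 libraries as a point, the lowest to highest library as a line and the role as the colour. Hspa8 and Hsp90ab1 lead with means of 656 and 614, and the lines of Hspb1 and Cryab are the widest.

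The members differed in how far they spread. The highest library stood 10.2 times above the lowest for Hspb1 and 7.48 times for Cryab (alpha B crystallin, a small heat shock protein of glia). For the other 34 genes this ratio lay between 1.32 (Atf6, a membrane-bound ER stress sensor) and 2.79 (Ddit3, the stress factor CHOP). Within groups, the mean coefficient of variation was 5.89% for Atf6 and 6.11% for Sel1l, the adaptor of the ER ubiquitin ligase, against 32.0% for Hspb1 and 38.6% for Cryab.

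The age comparison in controls asked what differs between adolescence and adulthood without ethanol. Both small heat shock proteins rose in control males, and no other member passed the adjusted threshold of 0.05 in this or any other of the 13 comparisons made (edgeR, Benjamini-Hochberg adjustment over all genes tested). In this comparison 2 of the 36 genes passed, beside 2.53% of 24065 genes.

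Hspb1 in control males ranged from 1.35 to 4.61 CPM at P42, with a median of 3.58 (n = 9). At P90 it ranged from 4.11 to 13.65 CPM, with a median of 8.61 (n = 6). The groups overlap through adult replicate 2, the lowest adult, while adult replicates 3, 4 and 6 stood at 13.65, 11.51 and 11.53 CPM. The rise was 1.42 ± 0.26 (log2 fold change, SE; adjusted p = 0.00423).

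Cryab ranged from 10.85 to 20.9 CPM at P42, with a median of 13.46. At P90 it ranged from 21.27 to 75.96 CPM, with a median of 38.79. The groups do not overlap, which 0.37% of genes shared in this direction, but the highest adolescent and the lowest adult lie close together. The rise was 1.58 ± 0.36 (adjusted p = 0.0181). Without adult replicate 4 it was 1.41 (adjusted p = 0.0741), and without adult replicate 6 it was 1.38 (adjusted p = 0.0995), so the call on Cryab ended in these 2 fits. Without the control libraries against their sex label the values were 1.45 for Hspb1 (adjusted p = 0.00871) and 1.62 for Cryab (adjusted p = 0.0337).

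Markers of neighbouring tissues and of other cell types also differed between the ages in control males. Of 10 choroid plexus markers 10 were higher in the adult males, with a median of 0.96 on the log2 scale. Their summed level ranged from 22.5 to 1853 CPM at P42 and from 73.7 to 3816 CPM at P90, highest in adult replicate 6. Of 8 ependymal markers 8 were higher (median 0.63), with sums of 74.996 to 291 CPM at P42 and 86.9 to 608 CPM at P90, highest in adult replicate 3. Microglia markers were higher in 8 of 8 (median 0.43), with sums of 150.48 to 257.97 CPM at P42 and 174.05 to 368.18 CPM at P90, and C1qa, C1qb and C1qc, the complement genes among them, passed the threshold. Astrocyte markers were higher in 8 of 8 (median 0.27), of which S100b and Aldoc passed, and immediate early genes, which mark recent neuronal activity, in 10 of 10 (median 0.61), of which Fos, Fosb and Dusp1 passed. Endothelial markers were lower in 7 of 7 (median -0.16). No gene of these 6 lists was at 0 in a library. Scores of neighbouring tissues were taken from choroid plexus, ependymal and cortical excitatory neuron markers only. With them as covariates, Hspb1 stood at 0.91 (adjusted p = 0.132) and Cryab at 1.14 (adjusted p = 0.169), and neither passed. In bulk tissue, more cells of a type and more RNA per cell cannot be told apart.

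In every group except the adult control males, the library with the most Cryab was also the richest in myelin markers, a pattern chosen after its values were seen. Among adult control males the summed level of 9 oligodendrocyte genes was highest in replicate 4, at 31956 CPM, where Cryab stood at 70.53 CPM, while Cryab was highest in replicate 6, at 75.96 CPM with a sum of 27638 CPM. Among P42 control females the sum was highest in replicate 1, at 31212 CPM, with Cryab at 45.74 CPM against 10.15 to 21.83 in the others. Among adult control females the sum was highest in replicate 1, at 19187 CPM, with Cryab at 74.49 CPM against 12.8 to 37.24 in the others. The other adult control males had sums of 8116 to 13184 CPM and Cryab of 21.27 to 47.84 CPM. Between the ages in control males, 3 of the 9 oligodendrocyte genes were higher, with a median of -0.10. The part of these cells in the Cryab values was not tested.

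**Figure D2:**
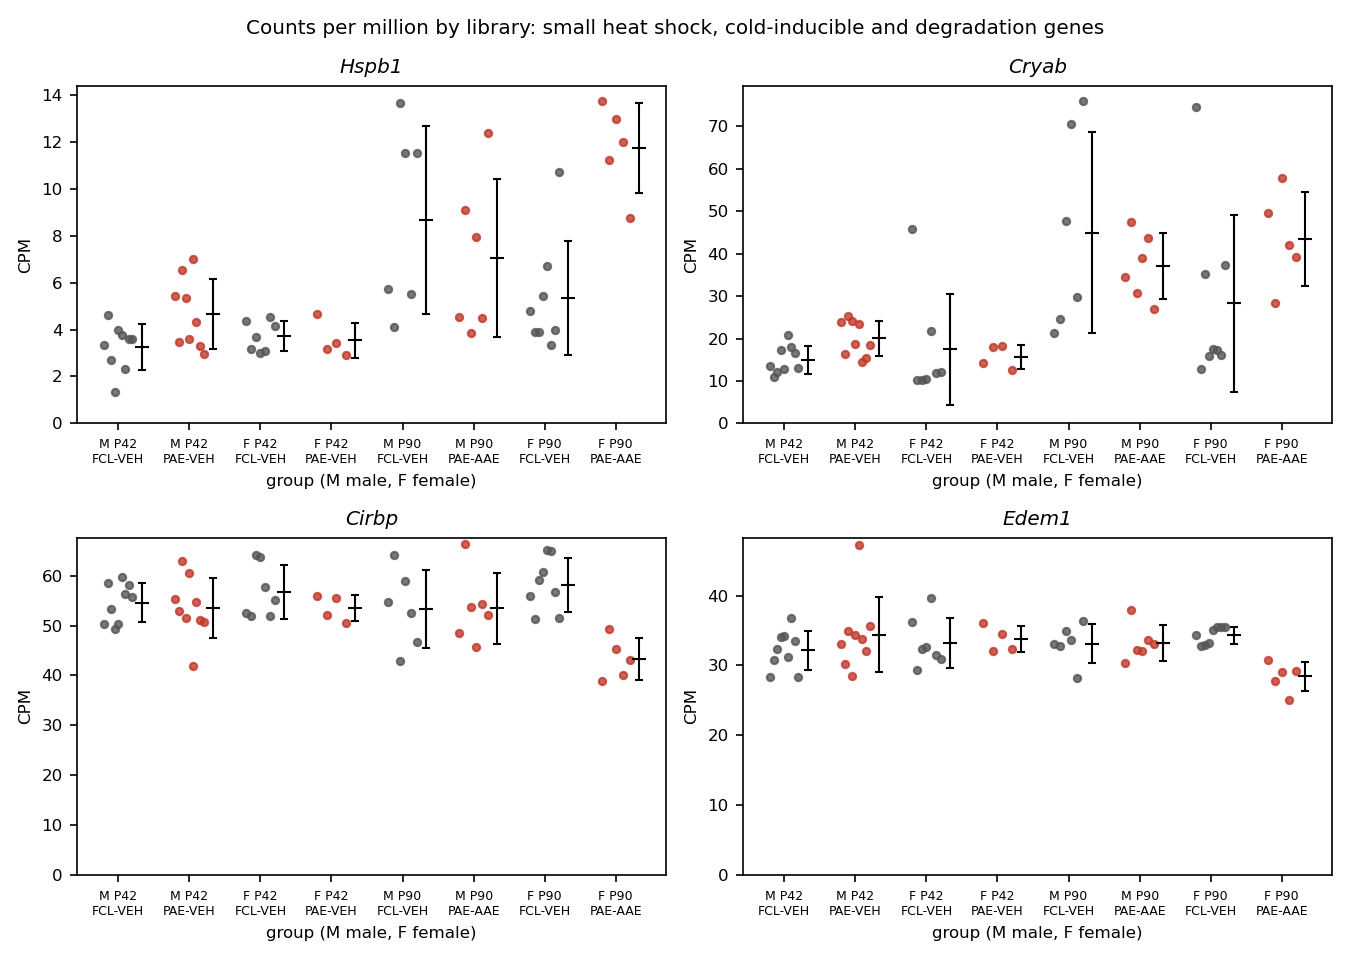
CPM of Hspb1, Cryab, Cirbp and Edem1 in each library by group, with controls in grey, exposed groups in red, and the mean and SD in black beside the points. Hspb1 and Cryab are higher in adult than in adolescent control males, and the 5 PAE-AAE females at P90 lie below the 8 controls for Cirbp and Edem1.

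Of the other members in control males, 6 reached an unadjusted p under 0.05, each higher at P90. They were Bag3 (0.42), Sdf2l1 (0.40), an ER co-chaperone, Herpud1 (0.31), an ER membrane protein of degradation, Hspe1 (0.26), the co-chaperonin, Atf4 (0.25), the factor of the integrated stress response, and Manf (0.24), a secreted ER stress protein. Together with the small heat shock proteins these make 8 of 36, all higher, beside 10.9% of all genes higher and 6.69% lower at the same mark. They were 6, all higher, without the libraries against their sex label, beside 10.6% and 5.44% of all genes. Sdf2l1 passed when adult replicate 2 was left out (0.52, adjusted p = 0.0383).

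In control females no member passed, beside 0.42% of 24065 genes. Atf4 (0.27 ± 0.09, adjusted p = 0.179), Ddit3 (0.38 ± 0.14, adjusted p = 0.208), Dnajb1 (0.23 ± 0.09, adjusted p = 0.22), an HSP40 that activates HSP70, and Manf (0.25 ± 0.11, adjusted p = 0.283) reached an unadjusted p under 0.05. These are 4 of 36, all higher, beside 9.18% of all genes higher and 6.1% lower at that mark, and DESeq2 gave 5 and none past the threshold. Without the libraries against their sex label 5 were higher and 0 lower, beside 7.73% and 6.09% of all genes, with Atf4 at 0.28 (adjusted p = 0.252) and Ddit3 at 0.42 (adjusted p = 0.233). Without adult replicate 1, 3 were higher and 2 lower, beside 6.4% and 4.81% of all genes. Without adult replicate 4, whose Dnajb1 was the lowest of its group at 37.1 CPM, Dnajb1 stood at 0.29 with an adjusted p = 0.0479. Atf4 and Manf are the members at this mark in both sexes. For Atf4, control females ranged from 66.86 to 79.68 CPM at P42 (median 75.86) and from 69.54 to 126.05 CPM at P90 (median 87.43), and control males from 63.39 to 92.87 (median 72.38) and from 77.71 to 98.69 (median 86.9). The groups overlap in both sexes.

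The age difference in females less that in males was -0.89 for Hspb1 (SE 0.37, adjusted p = 0.54) and -0.88 for Cryab (SE 0.51, adjusted p = 0.668), and no member passed in this comparison (0% of 24065 genes). Hspb1 and Herpud1 (-0.37) were lower and Sel1l (0.16) higher at an unadjusted p under 0.05, beside 4.64% of all genes lower and 3.86% higher. There were 0 higher and 2 lower without the libraries against their sex label. Between control males and females no member passed at either age, beside 0% of genes at P42 and 0.0499% at P90. At P42 there were 0 members at an unadjusted p under 0.05 by edgeR and 1 by DESeq2, beside 3.97% of all genes higher in females and 2.12% lower. At P90 Sel1l was higher in females (0.11) and Hspb1 lower (-0.70), beside 2.82% and 3.03% of all genes. Without the libraries against their sex label, 1 member was higher and 0 lower at P42, and 0 higher and 1 lower at P90.

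The comparison of PAE-VEH with controls at P42 asked what prenatal ethanol alone left in adolescence. In males, 34 of the 36 chaperone genes were higher after prenatal ethanol, by small amounts, and none passed the adjusted threshold, as was so for 0% of 24741 genes. The exceptions were Cirbp (-0.03) and Rbm3 (-0.07). The median log2 fold change was 0.15 for the 36 genes and 0.01 for all genes tested, of which 52.7% were higher. At an unadjusted p under 0.05, 18 of 36 were higher and 0 lower, beside 5.95% of all genes higher and 3.02% lower. Without the libraries against their sex label, 14 of 36 were higher at this mark and 33 were above 0, beside 5.91% of all genes higher and 2.48% lower. Without male PAE-VEH replicate 6, the median of the 36 genes was 0.11.

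Among the ER chaperones, Hsp90b1 had the smallest adjusted p. In control males it ranged from 342 to 400.3 CPM, with a median of 378.6, and in PAE-VEH males from 364 to 500.9 CPM, with a median of 433.8. The groups overlap, although the median of the exposed lies above the highest control. The difference was 0.21 ± 0.05 (adjusted p = 0.228), and DESeq2 gave 0.21 with an adjusted p = 0.0375, its only member past the threshold here. The highest exposed library, replicate 5, is one of those against their sex label, and without these the difference was 0.18 by edgeR (adjusted p = 0.414) and 0.17 by DESeq2 (adjusted p = 0.172), with no call.

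Hspa5, the ER HSP70, ranged from 265.2 to 355.9 CPM in controls (median 311.5) and from 330.2 to 498.2 CPM in PAE-VEH males (median 365.8). The overlap is narrow, and exposed replicate 4 stands above the rest. The difference was 0.27 ± 0.07 (adjusted p = 0.297), and 0.24 without the libraries against their sex label (adjusted p = 0.451). Dnajc3 (0.16), an inhibitor of translation kinases in the ER, Manf (0.22) and Hyou1 (0.12), the ER HSP110, were also at an unadjusted p under 0.05.

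The lectin chaperones, which bind glycoproteins, and the disulfide isomerases, which form disulfide bonds, were higher in 6 of 6, and 5 had an unadjusted p under 0.05. P4hb, the founding disulfide isomerase, ranged from 109.4 to 120.1 CPM in controls (median 116.6) and from 122.2 to 151.2 CPM in PAE-VEH males (median 126.7). Its groups do not overlap, which 0.0162% of all genes shared in this direction, and its difference was 0.17 ± 0.05 (adjusted p = 0.297), and 0.18 without the libraries against their sex label (adjusted p = 0.446). Calr (0.24), Pdia3 (0.17), Pdia6 (0.20) and Pdia4 (0.28), the other isomerases and the lectin at this mark, had adjusted p-values of 0.244, 0.244, 0.244 and 0.396, and Canx, the membrane lectin, stood at 0.07.

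In the cytosol and mitochondria the differences had a similar range. Hspa8 ranged from 1177 to 1415 CPM in controls (median 1269) and from 1295 to 1785 CPM in PAE-VEH males (median 1441). Its groups overlap, and its difference was 0.19 ± 0.06 (adjusted p = 0.353). Hspe1 (0.21), Hspd1 (0.13), Dnaja1 (0.15), an HSP40, Hsp90aa1 (0.14) and Hsp90ab1 (0.13) were at an unadjusted p under 0.05, as were Hspb1 (0.52) and Xbp1 (0.18). Hspa4 (0.08), Hsph1 (0.10) and Dnajb1 (0.08) were not, and neither were the degradation genes Edem1 (0.10), Herpud1 (0.16) and Sel1l (0.01). The transcription factors Atf4 (0.09), Atf6 (0.05) and Ddit3 (0.18) did not reach it, nor did Cryab (0.42), Bag3 (0.20), Creld2 (0.21), a secreted ER protein, Dnajb11 (0.14), an ER HSP40 that brings clients to BiP, Sdf2l1 (0.07) and Dnajb9 (0.07), another ER HSP40.

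Astrocyte markers moved with this group. Of 8, 8 were higher in PAE-VEH males, with a median of 0.19, and their summed level ranged from 6966 to 8232 CPM in controls and from 7809 to 8944 CPM in the exposed. Ependymal markers were higher in 8 of 8 (median 0.30) and immediate early genes in 9 of 10 (median 0.17). The ependymal sums ranged from 74.996 to 291.23 CPM in controls (median 150.64). In the exposed they ranged from 23.384 to 455.59 CPM (median 145.75), highest in replicate 7. Microglia markers were higher in 8 of 8 (median 0.15), with sums of 150.48 to 257.97 CPM in controls and 183.54 to 344.26 CPM in the exposed. Endothelial markers were lower in 7 of 7 (median -0.22, 2 at an unadjusted p under 0.05), with sums of 131.71 to 211.45 CPM and 85.815 to 188.03 CPM. Cortical excitatory neuron markers were higher in 5 of 7 (median 0.51). Their sums ranged from 112.28 to 473.2 CPM in controls (median 215.37) and from 101.31 to 1647.5 CPM in the exposed (median 143.98), highest in replicate 6. No gene of these lists was at 0 in a library. With scores of neighbouring tissues as covariates, 17 of the 36 genes were higher and 0 lower at an unadjusted p under 0.05, beside 7.2% and 4.2% of all genes. These scores hold no astrocyte, microglia, endothelial or immediate early genes, so that fit does not adjust for them. The part of these cell types and of neuronal activity in the chaperone values was not tested.

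**Figure D3:**
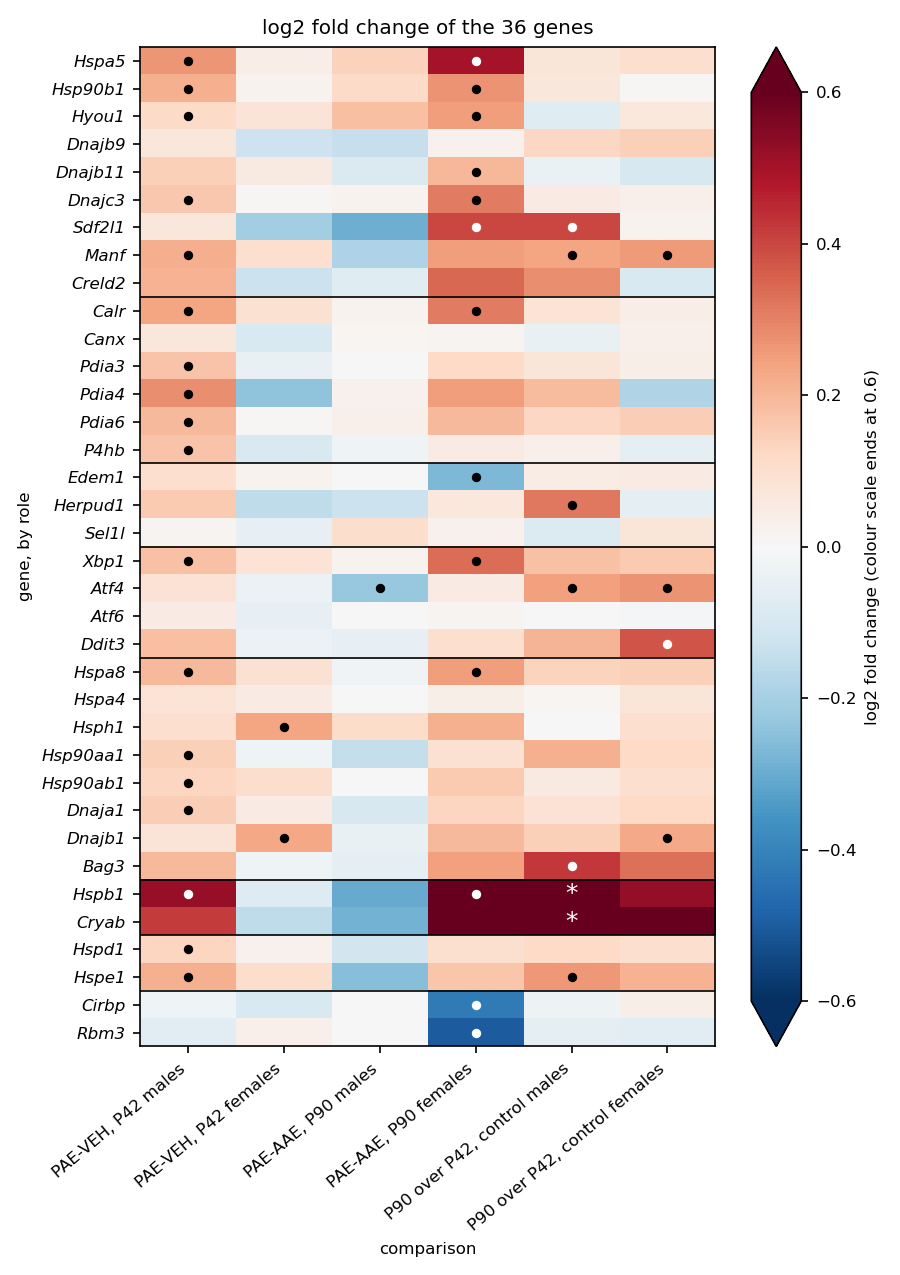
Log2 fold change of the 36 genes in 6 comparisons, as colour (the scale ends at 0.6). A dot marks an unadjusted p under 0.05 and a star an adjusted p under 0.05, and the stars are those of Hspb1 and Cryab in control males.

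In females at P42 the chaperones showed no common direction. Of 36 genes 19 were higher, beside 45.5% of all genes, with a median of 0.01 (all genes -0.03), and none passed, as was so for 0% of 24741 genes (edgeR). At an unadjusted p under 0.05 there were 2, both cytosolic and both higher, beside 5.76% of all genes higher and 5.5% lower, and DESeq2 gave the same numbers. Without the libraries against their sex label, 2 were higher and 1 lower, the latter Pdia4 (-0.27), beside 4.9% and 5.3% of all genes, and DESeq2 without them gave 1 in each direction.

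Dnajb1 stood at 49.77, 53.75, 54.05 and 58.46 CPM in the 4 PAE-VEH females, and ranged from 41.71 to 47.81 CPM in the 7 controls (median 46.53). The groups do not overlap, which 2.07% of all genes shared in this direction, and the difference was 0.23 ± 0.09 (adjusted p = 0.327), and 0.24 without the libraries against their sex label (adjusted p = 0.395). Hsph1, the cytosolic HSP110, stood at 455.3, 461.8, 465.5 and 525.8 CPM, and ranged from 350.8 to 478.2 CPM in controls (median 404.1). The groups overlap, and the difference was 0.24 ± 0.10 (adjusted p = 0.355), and 0.20 without those libraries (adjusted p = 0.482). Spiny neuron markers were higher in 11 of 11 in these females (median 0.49) and choroid plexus markers lower in 10 of 10 (median -1.09). The choroid plexus sums ranged from 48.656 to 1471.7 CPM in controls (median 129.41), highest in replicate 7. In the exposed they ranged from 60.71 to 632.59 CPM, with the higher median (188.05). Immediate early genes were higher in 10 of 10 (median 0.57). Their part in the chaperone values was not tested.

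The difference between the sexes at P42 was itself tested. The exposure difference was lower in females than in males for 33 of the 36 genes, beside 55.1% of all genes, with a median of -0.13. There were 6 lower and 0 higher at an unadjusted p under 0.05, beside 6.25% of all genes lower and 4.33% higher, and none passed (0% of genes). Of these 6, 5 were lectin chaperones or isomerases, namely Pdia4 (-0.52), P4hb (-0.26), Pdia3 (-0.21), Pdia6 (-0.19) and Canx (-0.16), and the other was Hsp90b1 (-0.19). Pdia4 and P4hb had the smallest adjusted p, at 0.265 each. Pdia4 stood at 38.65, 39.01, 50.57 and 50.64 CPM in PAE-VEH females against 45.11 to 58.34 in their controls (median 52.69). In males it ranged from 42.79 to 74.96 after exposure (median 54.81) against 38.45 to 53.42 (median 46.13). Without the libraries against their sex label 0 were higher and 6 lower, beside 4.57% and 7.26% of all genes, with Pdia4 at -0.58 (adjusted p = 0.172) and P4hb at -0.28 (adjusted p = 0.206). DESeq2 called no member with all libraries and Pdia4 without these (-0.57, adjusted p = 0.0417), a fit chosen after seeing the data. Over the mean of both sexes, 30 of 36 were higher, beside 47.5% of all genes, and 14 were higher and 0 lower at an unadjusted p under 0.05, beside 6.35% and 4.56% of all genes, with none past the threshold (0% of genes). In the fit without the libraries against their sex label 10 were higher and 0 lower, beside 4.3% and 3.37% of all genes.

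The comparison of PAE-AAE with controls at P90 asked what both exposures left in adulthood. In females, 33 of the 36 genes were higher, beside 45.1% of all genes, by most in Hspb1 (1.13), Cryab (0.62) and Hspa5 (0.50), while Cirbp, Rbm3 and Edem1 were lower. No member passed the threshold, as was so for 0% of 24018 genes. The median was 0.18 for the 36 genes and -0.02 for all genes tested. At an unadjusted p under 0.05, 10 were higher and 3 lower, beside 1.67% of all genes higher and 2.56% lower.

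Cirbp had the smallest p of the members. Cirbp, a stress-responsive RNA-binding protein, stood at 38.95, 40.004, 43.14, 45.26 and 49.39 CPM in the 5 PAE-AAE females. The 8 controls ranged from 51.24 to 65.21 CPM, with a median of 57.9. The groups do not overlap, which 0.129% of all genes shared in this direction, and the difference was -0.42 ± 0.10 (adjusted p = 0.687).

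Rbm3, its close relative, stood at 28.04, 32.35, 34.97, 42.72 and 47.29 CPM, and ranged from 33.34 to 73.04 CPM in controls (median 51.05). The groups overlap through control replicate 1, the lowest control, and the difference was -0.50 ± 0.16 (adjusted p = 1). Edem1 stood at 25.12, 27.81, 29.12, 29.24 and 30.84 CPM, and ranged from 32.81 to 35.58 CPM in controls (median 34.68). These groups do not overlap either, and the difference was -0.27 ± 0.06 (adjusted p = 0.711). Leaving out each library in turn kept Cirbp between -0.48 and -0.39 and Edem1 between -0.31 and -0.24, with no call in 13 fits for either gene.

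Hspa5 was the ER chaperone with the largest difference. It stood at 377.4, 443, 460.6, 472 and 534 CPM in PAE-AAE females, and ranged from 247.5 to 486 CPM in controls (median 316.3). The overlap comes from control replicate 1 at 486 CPM, the next control being at 338.8 CPM. The difference was 0.50 ± 0.16 (adjusted p = 1).

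Others of its system followed in smaller steps. Hsp90b1 (0.27), Hyou1 (0.25), Dnajb11 (0.20), Dnajc3 (0.31) and Sdf2l1 (0.40) were at an unadjusted p under 0.05, while Manf (0.25), Creld2 (0.35) and Dnajb9 (0.02) were not. Calr (0.31) was the only lectin or isomerase at this mark, the other 5 lying between 0.01 for Canx and 0.25 for Pdia4. Xbp1, whose spliced form drives ER chaperone genes, stood at 92.21, 94.73, 95.03, 95.14 and 105.05 CPM, and ranged from 64.45 to 105.4 CPM in controls (median 74.04). Again control replicate 1 made the overlap, and the difference was 0.34 ± 0.11 (adjusted p = 1). The counts do not separate spliced from unspliced Xbp1. Atf4 (0.05), Atf6 (0.02), Ddit3 (0.10), Herpud1 (0.06), Sel1l (0.03), Hspd1 (0.09) and Hspe1 (0.17) were not at this mark.

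Hspb1 stood at 8.74, 11.23, 12.002, 12.96 and 13.75 CPM in PAE-AAE females, and ranged from 3.34 to 10.72 CPM in controls (median 4.39). The groups overlap through control replicate 8, and the difference was 1.13 ± 0.31 (adjusted p = 0.892). With scores of neighbouring tissues as covariates it was 1.02 (adjusted p = 0.468). Hspa8 stood at 1559, 1583, 1610, 1683 and 1703 CPM against 1100 to 2015 CPM in controls (median 1309), a difference of 0.25 ± 0.11 (adjusted p = 1), and control replicate 1 was the only control above 1433 CPM. Cryab (0.62) and the other 7 cytosolic genes, from 0.03 for Hspa4 to 0.25 for Bag3, were not at this mark. The summed oligodendrocyte markers ranged from 6706 to 19187 CPM in controls (median 8356) and from 8597 to 16701 CPM in PAE-AAE females (median 11538). Their part in the Cryab difference was not tested.

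The count in these females depends on 1 library. Without control replicate 1 at P90, which was the highest control for Hspa5, Hsp90b1, Calr, Xbp1, Hspa8 and Hspd1 among others, 19 of the 36 genes were higher and 3 lower at an unadjusted p under 0.05, with a median of 0.25 and none past the threshold, beside 3.30% of all genes higher and 4.75% lower. Without PAE-AAE replicate 2, 7 were higher and 3 lower, beside 1.73% and 3.14% of all genes. Of 10 choroid plexus markers 10 were higher (median 0.48), with sums of 96.2 to 843 CPM in controls and 38.6 to 3839 CPM in PAE-AAE females. Of 10 immediate early genes 9 were higher (median 0.49), with sums of 187.11 to 673 CPM and 517 to 661 CPM. Spiny neuron markers were higher in 11 of 11 (median 0.22) and astrocyte markers in 7 of 8 (median 0.12). No gene of these 4 lists was at 0 in a library, and their part in the chaperone values was not tested.

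**Figure D4:**
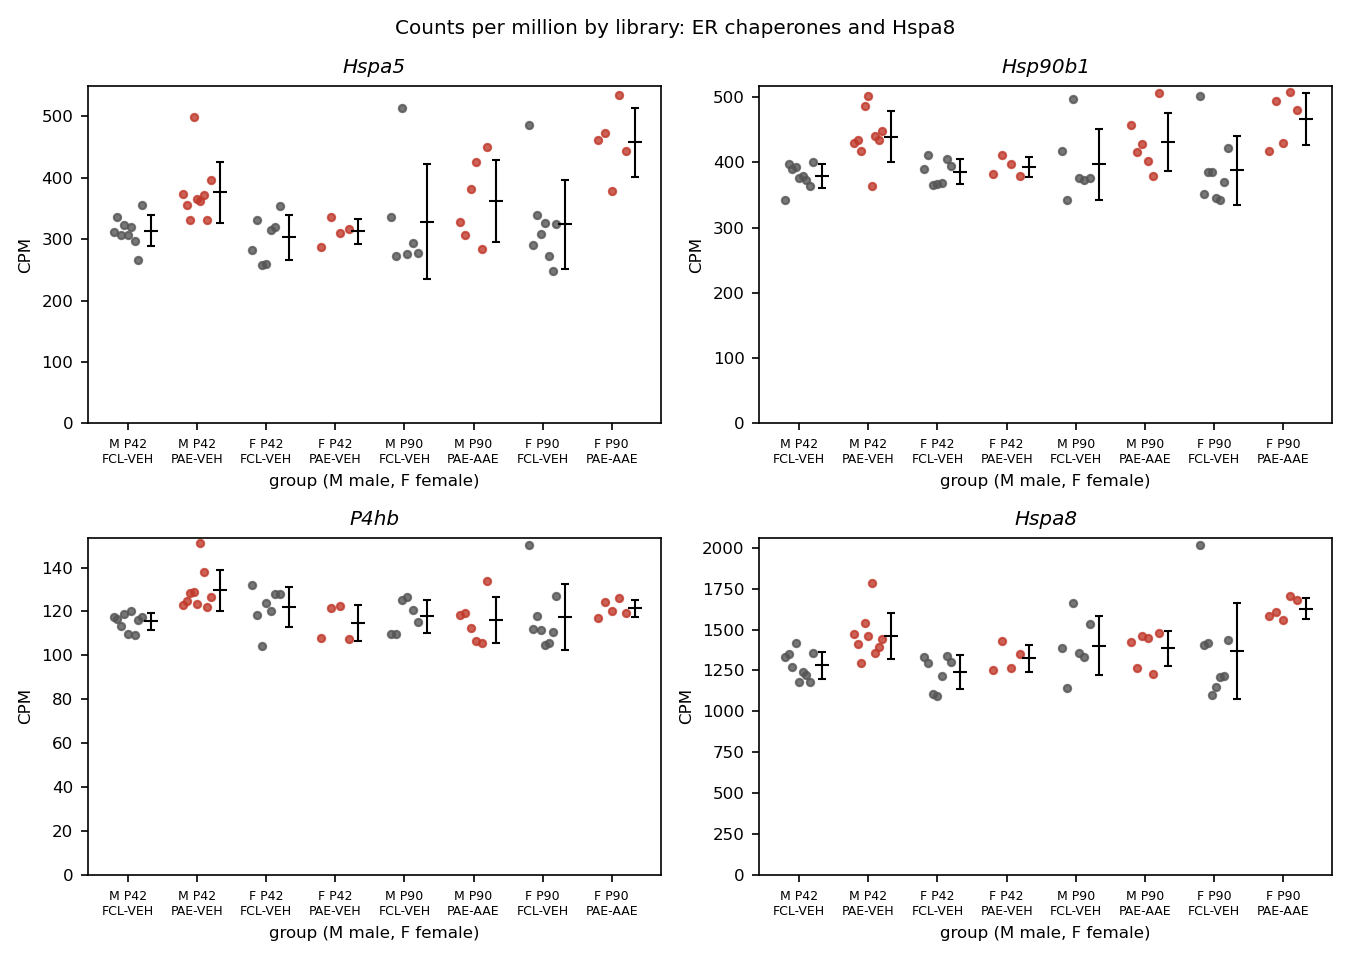
CPM of Hspa5, Hsp90b1, P4hb and Hspa8 in each library by group, with controls in grey, exposed groups in red, and the mean and SD in black beside the points. PAE-VEH males at P42 lie above their controls for P4hb, and a single control female at P90 reaches 486 CPM of Hspa5 and 2015 CPM of Hspa8.

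In males at P90 the chaperones did not share this direction. Of 36 genes 14 were higher, beside 51.9% of all genes, and none passed (0% of 24018 genes). The median was -0.01. There were 0 higher and 1 lower at an unadjusted p under 0.05, the latter Atf4, beside 3.19% of all genes higher and 5.56% lower. Atf4 ranged from 66 to 98.43 CPM in PAE-AAE males (median 71.14) and from 77.71 to 98.69 CPM in controls (median 86.9). The groups overlap, and the difference was -0.23 ± 0.11 (adjusted p = 0.57). The cold-inducible genes, which were lower in exposed females, had medians of 52.88 CPM in exposed and 53.68 CPM in control males for Cirbp, and 46.61 CPM in exposed males for Rbm3, whose controls ranged from 34.0 to 61.51 CPM. Hspb1 stood at -0.30 and Cryab at -0.28. DESeq2 called none and had 0 at the unadjusted mark. Choroid plexus markers were lower in 9 of 10 in these males (median -0.71), astrocyte markers in 8 of 8 (median -0.24) and oligodendrocyte markers in 9 of 9 (median -0.44). Microglia markers were lower in 8 of 8 (median -0.50, 5 at an unadjusted p under 0.05), with sums of 174.05 to 368.18 CPM in controls and 126.89 to 237.15 CPM in the exposed. Endothelial markers were higher in 7 of 7 (median 0.30), with sums of 108.65 to 163.91 CPM and 128.13 to 227.88 CPM. The part of these cell types in the values was not tested.

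The difference between the sexes at P90 was tested in the same fit. The exposure difference was higher in females than in males for 32 of the 36 genes, beside 46% of all genes, with a median of 0.21 (all genes -0.03). There were 6 higher and 3 lower at an unadjusted p under 0.05, beside 5.31% of all genes higher and 5.28% lower, and none passed (0% of genes). The 6 were Hspb1 (1.44 ± 0.45), Sdf2l1 (0.69 ± 0.26), Manf (0.43 ± 0.19), Hspe1 (0.42 ± 0.20), Dnajc3 (0.29 ± 0.13) and Dnajb11 (0.29 ± 0.11). The 3 were Rbm3 (-0.50 ± 0.23), Cirbp (-0.42 ± 0.14) and Edem1 (-0.27 ± 0.09). The smallest adjusted p was 0.423. With scores of neighbouring tissues as covariates, 1 was higher and 2 lower at this mark, beside 2.18% and 2.25% of all genes. Without female control replicate 1, 16 were higher and 3 lower, beside 9.16% and 8.36% of all genes. Over the mean of both sexes at P90, 6 members were higher and 3 lower at an unadjusted p under 0.05, beside 1.42% and 1.84% of all genes, with no member past the threshold (0.00416% of genes).

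Genes of the same pathways outside the set were read from the same fits. Of 41 further genes of ER folding, stress sensing and degradation, 40 were tested in controls and in adults and 39 at P42. None passed in an exposure comparison. In P42 males 31 of 39 were higher (median 0.05), beside 52.7% of all genes, and 10 were higher and 1 lower at an unadjusted p under 0.05, beside 5.95% and 3.02% of all genes. In P90 females 24 of 40 were higher, beside 45.1% of all genes, with 1 in each direction at that mark, beside 1.67% and 2.56%. The 1 gene past the threshold was Ppp1r15a, which reverses the translational block of the integrated stress response and rose with age in control females (0.38 ± 0.08, adjusted p = 0.0355), beside 0.42% of all genes.

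Of 51 further cytosolic and mitochondrial chaperone genes, 49 were tested. In P42 males 42 of 49 were higher after prenatal ethanol (median 0.10), beside 52.7% of all genes, and 17 were higher and 1 lower at an unadjusted p under 0.05, beside 5.95% and 3.02%. In P90 females 42 of 49 were higher (median 0.08), beside 45.1% of all genes, with 4 higher and 1 lower at that mark, beside 1.67% and 2.56%. In P90 males 9 of 49 were higher (median -0.10), beside 51.9% of all genes, with 1 higher and 3 lower at that mark, beside 3.19% and 5.56%. With age in control males, Hspa2, an HSP70 family member (0.77 ± 0.19, adjusted p = 0.0289), and Hspb8, a small heat shock protein that works with Bag3 (0.77 ± 0.15, adjusted p = 0.00657), rose. Dnajb14, an ER-bound HSP40 (-0.34 ± 0.07, adjusted p = 0.00569), fell, beside 2.53% of all genes past the threshold. Hspa2 ranged from 10.57 to 16.16 CPM at P42 (median 11.75) and from 12.99 to 47.33 CPM at P90 (median 16.18). Hspb8 ranged from 16.2 to 26.0 CPM (median 19.4) and from 18.5 to 57.4 CPM (median 32.5). The groups overlap for both genes. For Dnajb14 they do not, at 32.3 to 35.4 CPM and 23.1 to 30.3 CPM. These genes were read from fits with all libraries and no covariates.

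Members also varied together between libraries of the same group. For 8 pairs chosen by compartment, log2 CPM was centred within groups and correlated over 54 libraries, with 100000 permutations within groups and adjustment over the 8 pairs (two-sided). Libraries with more Hspa5 had more Hsp90b1 (r = 0.73, rho = 0.65) and more Xbp1 (r = 0.75, rho = 0.75), and those with more Hspd1 had more Hspe1 (r = 0.77, rho = 0.67). Each of these r had an adjusted p = 2e-05, which rests on the smallest p the permutations can give. Without the 2 libraries farthest from the median the r values were 0.59, 0.68 and 0.65. Within P42 they were 0.54, 0.73 and 0.72, and within P90 0.80, 0.78 and 0.79. Hspa5 and Hsph1, of different compartments, gave r = 0.29 and rho = 0.31 (adjusted permutation p of r = 0.0864). This pair does not stand for its compartments. Over all pairs, the ER HSP70 and HSP90 system had a median r of 0.45 with the cytosolic members (72 pairs, 71 positive). Among its own members the median was 0.37 (36 pairs, 34 positive). Hsph1 and Dnajb1, which share a compartment, gave r = 0.24 and rho = 0.26 (adjusted permutation p of r = 0.107).

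The cold-inducible pair ran with each other and against Hsph1. Cirbp and Rbm3 gave r = 0.63 and rho = 0.58 (adjusted permutation p of r = 2e-05), and r = 0.57 without the 2 farthest libraries. Hsph1 gave r = -0.47 and rho = -0.43 with Cirbp (adjusted permutation p of r = 0.00352) and r = -0.43 and rho = -0.40 with Rbm3 (adjusted permutation p of r = 0.00387). Without the 2 farthest libraries these were -0.35 and -0.35. For Hsph1 and Cirbp r was -0.23 within P42 and -0.66 within P90, and for Hsph1 and Rbm3 it was -0.39 and -0.46.

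The full set of pairs is given as a description, since the libraries share depth and tissue composition, and the part of RNA quality was not tested. Of 630 pairs 495 were positive, with a median r of 0.33. Rbm3 was negatively related to 33 of the 34 members other than Cirbp, with a median of -0.51, and the lowest r was that with Hspa8, at -0.79. Cirbp was likewise negative with 33 of 34 (median -0.34). The highest r was between Hspa8 and Dnaja1, at 0.91, followed by Hspa8 and Hspd1 at 0.90. Pdia4, Creld2 and Herpud1 also went together, with 0.835 between Creld2 and Pdia4, 0.83 between Pdia4 and Herpud1 and 0.79 between Creld2 and Herpud1, while with Hspa8 Pdia4 gave 0.36, Creld2 0.17 and Herpud1 0.09.

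**Figure D5:**
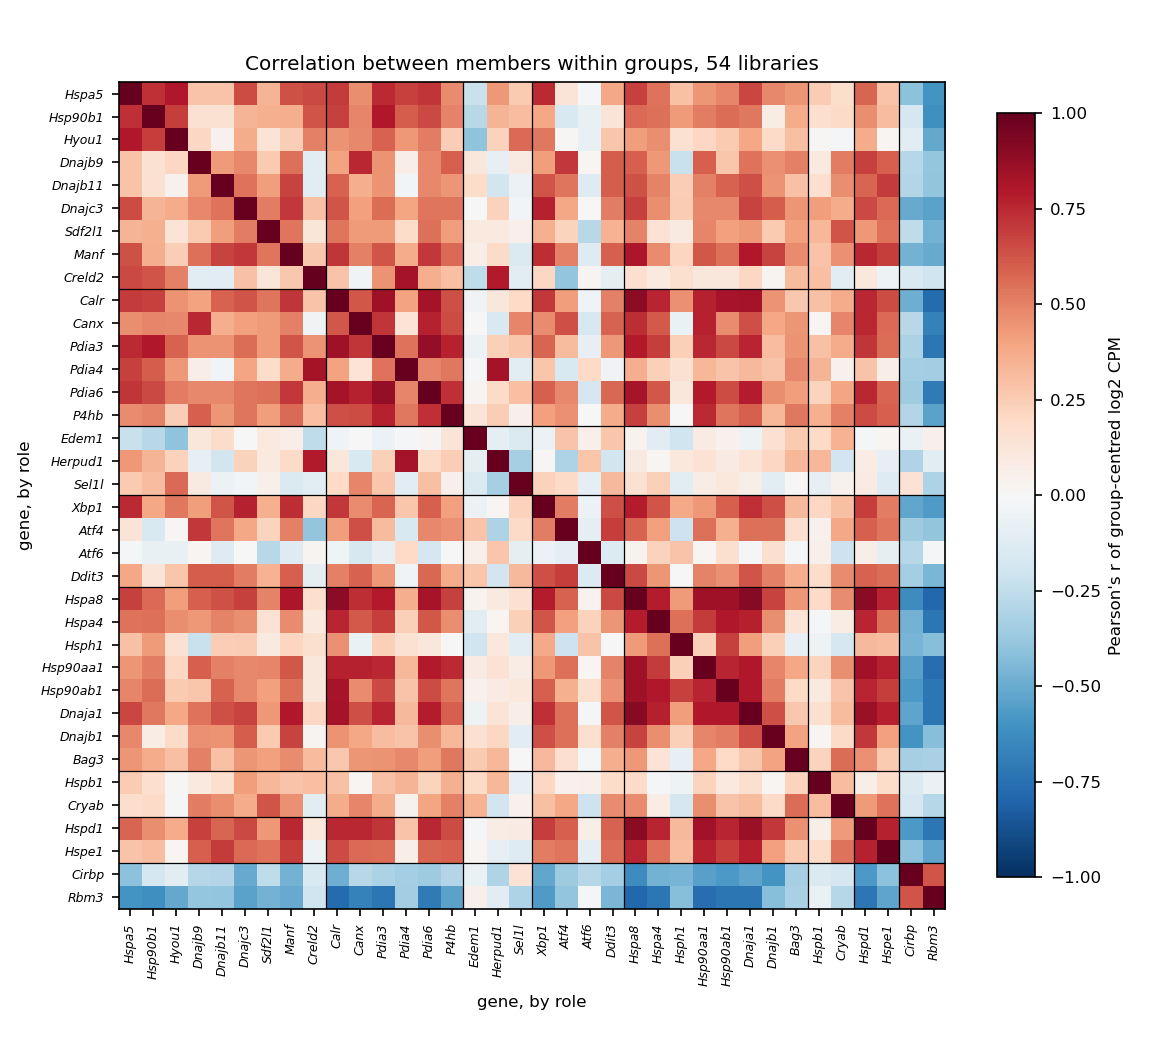
Pearson's r between the 36 genes from log2 CPM centred within groups over 54 libraries, with genes in order of role and lines between roles. Rbm3 and Cirbp form the blue border against most other genes, and Hspa8, Dnaja1 and Hspd1 the deepest red block.

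Grouped by the promoter letters printed above, the 5 genes with a heat shock element had a median r of 0.76 over their 10 pairs. The 10 genes with an ER stress element of either form had a median of 0.47 over 45 pairs, and the 15 with neither had a median of 0.17 over their pairs. The 15 include Cirbp and Rbm3, each negative with 33 of the 34 members outside this pair. Over all 561 pairs of members without Cirbp and Rbm3 the median was 0.40, and the median of the 15 genes without them was not computed. The 10 genes with an ER stress element were higher in 10 of 10 in P42 PAE-VEH males (median 0.17) and in 10 of 10 in P90 PAE-AAE females (median 0.29). The 15 with neither were higher in 13 (median 0.09) and in 12 (median 0.05). The rest were Cirbp and Rbm3 in these males, and Cirbp, Rbm3 and Edem1 in these females. The 5 with a heat shock element were higher in 5 of 5 in both groups (medians 0.15 and 0.17). In P42 PAE-VEH females 7 of 10 with an ER stress element were higher (median 0.03), 5 of 5 with a heat shock element (median 0.09) and 5 of 15 with neither (median -0.04). In P90 PAE-AAE males these were 7 of 10 (median 0.02), 1 of 5 (median -0.10) and 4 of 15 (median -0.03). These counts describe the genes and give no test of the letters.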

How the data were processed

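The authors deposited 1 table of raw counts for 54 libraries. The FPKM columns deposited by the authors in the same table served only to check the order of levels. Per the labels' protocols, cDNA was primed with random hexamers without keeping strand, so reads of a gene and an antisense neighbour are not separable. The protocols state RNA integrity numbers of 5.8, 6.3 and 7.2, and RNA integrity entered no model. The submitters' processing notes name fastp and HISAT2 2.0.5, while the counting tool is not given in the sources used here. Gene coordinates of 45780 of 45785 named genes equal those of RefSeq GRCr8, the build printed here. The 720 rows with no gene name (0.271% to 0.412% of counts) were left out. The members, lists, motifs and tests were chosen with earlier results of these data known.

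Counts were tested with edgeR 4.0.16 in R 4.3.3 (TMM, default filter by group, two-sided quasi-likelihood F test, Benjamini-Hochberg adjustment over all genes, threshold 0.05), in 3 fits of 29 P42, 25 P90 and 30 control libraries, and the script was tested on simulated data. Of 24741, 24018 and 24065 genes, the biological coefficient of variation was 34.2%, 39.6% and 35.4%. CPM use TMM over 54 libraries, and log2 CPM a prior count of 0.5. Each of the 36 genes is accounted for by role, and up to 4 per comparison with the smallest p are given in full, with others named by unadjusted p or for their place in a group. Alternatives were RLE size factors, no filter, DESeq2 1.42.0, all 54 libraries in 1 fit, leaving out libraries, and neighbouring tissue scores as covariates. These scores were the mean centred log2 CPM of the choroid plexus, ependymal and cortical excitatory neuron markers, and of no other list.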

Additional observations from a re-analysis of the deposited data

Results flagged for a closer look

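In 288 groups of 4 to 9 libraries, one for each member and group, 38 held a library far from the others (Dixon's test at 95%), where chance flags about 1 in 20 groups, or 14.4 here. The 38 came from 15 libraries, and groups of 1 library are not independent. Female control replicate 1 at P90 accounted for 15 of them. It stood highest for Hspa5 (486.0 CPM, the others at most 338.8), Dnajb11 (48.55 CPM), Sdf2l1 (18.46 CPM), Manf (61.17 CPM), Calr (517.2 CPM), Pdia6 (193.6 CPM) and Xbp1 (105.4 CPM). It also did so for Atf4 (126.05 CPM), Ddit3 (12.31 CPM), Hspa8 (2015 CPM), Hsp90aa1 (1844 CPM), Dnaja1 (335.2 CPM), Cryab (74.49 CPM), Hspd1 (242.1 CPM) and Hspe1 (121.2 CPM).

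Male PAE-VEH replicate 6 at P42 was highest for 6 genes, namely Dnajb11 (59.35 CPM), Edem1 (47.22 CPM), Atf4 (136.8 CPM, the others at most 77.86), Hspa8 (1785 CPM), Hsp90aa1 (1465 CPM) and Dnajb1 (69.05 CPM). Male control replicate 3 at P90 was highest for 4, namely Hspa5 (513.4 CPM), Creld2 (26.07 CPM), Pdia4 (91.1 CPM, the others at most 48.34) and Bag3 (21.95 CPM).

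The other libraries stood apart for 1 or 2 genes each. Among P42 males these were Hspa5 in PAE-VEH replicate 4 (498.2 CPM), Pdia4 in PAE-VEH replicate 7 (74.96 CPM) and Ddit3 in control replicate 1 (8.723 CPM). Among PAE-AAE males they were Pdia4 in replicate 6 (84.89 CPM), Xbp1 in replicate 4 (105.3 CPM) and Atf4 in replicate 3 (98.43 CPM). Among P42 females they were Atf6 in PAE-VEH replicate 1, which was low (67.75 CPM), Hspa4 (314.5 CPM) and Hsph1 (525.8 CPM) in PAE-VEH replicate 2, Cryab in control replicate 1 (45.74 CPM) and Rbm3 in control replicate 4 (78.1 CPM). Among P90 females they were Hspb1 in control replicate 8 (10.72 CPM) and Xbp1 in PAE-AAE replicate 1 (105.05 CPM).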

How the results depend on the processing

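No paired analysis was possible because replicate numbers follow the order of deposition and pair nothing. No member passed in 12 of the 13 comparisons, and over the planned settings other than leaving out single libraries this count differed in 1: DESeq2 gave 1 in P42 males. DESeq2 without the libraries against their sex label, added after seeing the data, gave 0 there, and 1 in the P42 difference between the sexes (Pdia4, -0.57). In control males with age the count of 2 became 0 with neighbouring tissue scores as covariates. Leaving out each library in turn gave 1 to 3 there and 0 to 1 in control females with age, and 0 in the other 11 comparisons. With the same covariates, 2 age differences between the sexes turned from negative to positive, Herpud1 to 0.0622 and Pdia4 to 0.0603, neither past the threshold. The pair of Hsph1 and Dnajb1 reached r = 0.31 without outlying libraries (adjusted permutation p = 0.0461). Groups held 4 to 9 libraries, with a biological coefficient of variation of 34.2% to 39.6%. The part of group size and depth (58.8 M counts or more) in what passed was not tested.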
